A study of Mus musculus with 3 samples.

Results

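The 10 genes described here are markers of neutrophils, and they were picked by gene symbol from the 23361 genes measured in mouse liver: S100a8, S100a9, Csf3r, Cxcr2, Mmp8, Mmp9, Retnlg, Clec4d, Clec4e and Trem1. The measurement is mRNA sequencing of 3 liver libraries, 1 from each group, of C57BL/6J mice aged 8 to 10 weeks. In sham mice the abdomen was opened without occlusion, and the liver was collected 90 min later. In warm ischemia (WI), the blood supply of the left and median lobes was clamped for 90 min. In ischemia followed by reperfusion (IR), the same 90 min of clamping preceded 2 h of restored flow. All mice were fasted and anaesthetised, no transgene or mutation is given. Each group held 6 mice, and whether a library pools several of them is not stated.

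Neutrophils are short-lived white blood cells made in the bone marrow under the growth factor G-CSF. They leave the blood at sites of injury, where chemokines of the CXC family draw them across the vessel wall, and they carry proteases and antimicrobial proteins in granules. Neutrophils are among the first blood cells to enter a liver whose flow is restored after ischemia. Their transcripts fall into an early part, made in the marrow and filling the granules, and a late part, made by mature cells, to which several of the 10 genes belong.

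Expression is given as FPKM, the fragments of a gene scaled for its length and by a factor for each library. That factor is not sequencing depth alone. Cuffdiff attached lower and upper 95% bounds. The bounds describe counting and model error within a library and not the spread between mice. With 1 library per group there was no replicate check, and no test between groups was possible. Differences are on the scale of log2(FPKM + 1), on which the change of a weakly expressed gene is understated. A gene passed the filter on low values when any library gave it an FPKM of 1 or more, which 10792 genes did, and it was counted as different at 2-fold or more in FPKM + 1. The genes were chosen with their behaviour in these libraries known, so their values are a description.

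All 3 libraries are labelled male, and the sham and WI libraries went against that label. Xist, the RNA that coats the inactive X chromosome of females, stood at an FPKM of 18.9 for sham, 20.1 for WI and 1.29 for IR. Its IR bounds were 0.639 to 1.94, so Xist was low there but not absent, and the reason was not tested. The Y-linked gene Ddx3y was listed at 0, 0.00849 and 8.58, and Eif2s3y at 0, 0 and 13.2. In every comparison with the IR sample, reperfusion cannot be told apart from the sex of the mice, nor from the longer time after surgery, since no sham sample was taken after the added 2 h. No result can be given without these libraries, because each is the only one of its group. The libraries were close in genes listed at 0, at 7629 to 7835. Their median coefficient of variation, at 25.96% to 26.01%, comes from the model behind the bounds and does not compare the libraries. The libraries were not close in FPKM summed over all genes, which was 475800 for sham, 487900 for WI and 712400 for IR. Marker sums and calls by bounds are given on this unequal, deposited scale.

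Neutrophil markers were low in the sham and WI samples with overlapping bounds, and 9 of the 10 were at least 2-fold higher in IR. Their summed FPKM was 26.0 for sham, 20.1 for WI and 486.1 for IR, which is 18.7 times the sham sum. Between WI and sham no marker differed 2-fold, against a background of 0.751% of the 10792 genes that were higher and 1.1% that were lower. Between IR and WI, 9 markers were at least 2-fold higher and none lower, against 5.78% and 1.43% of genes, and the same numbers held for IR against sham, beside 5.35% and 2.15%. Mmp9 was the exception in both comparisons. The bounds of IR and WI did not overlap for 9 of the 10 markers, all higher in IR, where 1.73% of all 23361 genes were apart and higher and 0.291% apart and lower. IR and sham were apart for the same number of markers, where the shares were 1.47% and 0.702%. WI and sham were apart for 0 markers, where the shares were 0.107% and 0.265%. Since these contrasts were known when the genes were picked, nothing is read from the excess. The comparisons with WI and with sham share the IR library. In whole liver, more neutrophils and more RNA per neutrophil cannot be told apart.

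**Figure D1:**
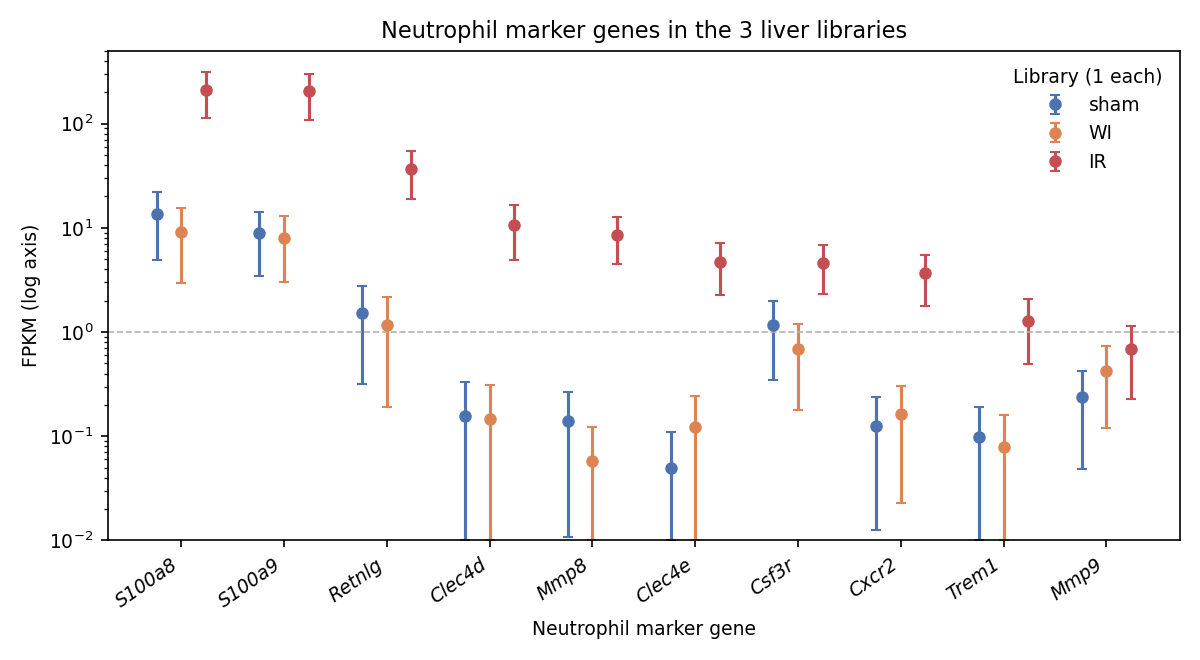
FPKM of the 10 neutrophil marker genes (log axis) in the sham, WI and IR libraries, 1 library each; bars are the deposited 95% bounds, and a lower bound of 0 runs off the axis. The IR point lies above the bounds of both other libraries for every gene but Mmp9.

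S100a8 and S100a9 encode the subunits of calprotectin, a calcium- and zinc-binding protein that fills the cytosol of neutrophils, and they were the most abundant of the 10 markers in all libraries. S100a8 (mm10, chr3:90669071-90670034) had an FPKM of 13.6 (95% bounds 4.97 to 22.2) for sham, 9.17 (2.96 to 15.4) for WI and 211.7 (113.7 to 309.7) for IR. The IR value was 23.1 times the WI value and 15.6 times the sham value, and the lowest IR bound was 7.40 times the highest WI bound. S100a9, its neighbour at chr3:90692633-90695691, had 8.86 (3.44 to 14.3), 8.07 (3.03 to 13.1) and 203.5 (107.6 to 299.5). Sham and WI overlapped for both genes, and IR stood apart from both. On the log2 scale the IR sample exceeded WI by 4.39 for S100a8 and by 4.50 for S100a9, which are places 22 and 20 among the rises of the 10792 genes. The ratio of S100a8 to S100a9 in FPKM was 1.53, 1.14 and 1.04 in sham, WI and IR, so the subunits were closest to equal in the IR sample. Together they made up 86.5%, 85.8% and 85.4% of the markers' summed FPKM. The composition by these genes was therefore nearly the same in all libraries while the sum differed, and the sum speaks mostly for this pair.

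Retnlg encodes a small secreted protein of the resistin family that mature mouse neutrophils express strongly. Retnlg (chr16:48872608-48874498) followed the calprotectin genes in every library, with an FPKM of 1.53 (0.316 to 2.75) in sham, 1.18 (0.191 to 2.17) in WI and 36.6 (18.9 to 54.4) in IR. The IR value was 31.1 times the WI value, and the difference of 4.11 on the log2 scale placed the gene 30th. With the calprotectin genes, Retnlg is one of the 3 markers that had an FPKM of at least 1 in all libraries, so their place in the filter did not rest on the IR sample.

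The cell-surface receptors for the signals that make and guide neutrophils started lower. Csf3r, the receptor for G-CSF (chr4:126024659-126044975), had an FPKM of 1.17 (0.346 to 1.99) in sham, 0.689 (0.180 to 1.198) in WI and 4.61 (2.31 to 6.92) in IR. Its IR to WI ratio of 6.69 was the lowest of the 9 markers that stood apart. Its lowest IR bound was only 1.92 times the highest WI bound and 1.16 times the highest sham bound. Cxcr2, the receptor for the CXC chemokines that attract neutrophils (chr1:74153994-74161246), had 0.127 (0.0125 to 0.241), 0.163 (0.0228 to 0.303) and 3.66 (1.78 to 5.54). The ratio of IR to WI was 22.5 for Cxcr2, more than for Csf3r, whereas the differences on the log2(FPKM + 1) scale were near each other, at 2.001 and 1.73. This is the compression that the added 1 brings at low FPKM.

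Clec4d and Clec4e encode paired C-type lectin receptors, MCL and Mincle, that recognise microbial glycolipids, and Mincle also binds a protein released by dying cells. Clec4d (chr6:123262107-123275268) had an FPKM of 0.156 (0 to 0.329) in sham, 0.145 (0 to 0.310) in WI and 10.6 (4.89 to 16.4) in IR. Clec4e, beside it at chr6:123281789-123289871, had 0.0496 (0 to 0.110), 0.124 (0.0038 to 0.244) and 4.71 (2.28 to 7.14). Both were near the limit of detection until the IR sample, where the lowest IR bound was 15.8 and 9.35 times the highest WI bound. Clec4d was 73.5 times as high in IR as in WI, and Clec4e 38.0 times. The Clec4e value in sham rests on 3 fragments. On the scale of the FPKM, the ratio of IR to sham in fragments was 92.1, with a 95% counting interval of 31.1 to 449.9. The IR fragments were computed from the FPKM, so this ratio restates that of the FPKM and only the interval is added. Trem1, a receptor that amplifies inflammatory signals in neutrophils and monocytes (chr17:48232739-48246924), had 0.0988 (0.0053 to 0.192), 0.0795 (0.000015 to 0.159) and 1.28 (0.498 to 2.05). With a difference of 1.08 between IR and WI, Trem1 lay just inside the 2-fold threshold, and it took place 549 among the rises.

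Mmp8 and Mmp9 encode the neutrophil collagenase and gelatinase B, secreted proteases stored in granules, and they parted. Mmp8 (chr9:7558429-7568486) had an FPKM of 0.140 (0.0109 to 0.268) in sham, 0.0573 (0 to 0.123) in WI and 8.59 (4.50 to 12.7) in IR. Its IR to WI ratio of 149.9 was the highest of the 10 markers, but the WI value rests on 4 fragments. On the scale of the FPKM, the ratio in fragments was 152.9, with a 95% counting interval of 59.3 to 563.7. Here too the IR fragments were computed from the FPKM, so only the interval is added. Mmp9 (chr2:164948251-164955846) had 0.238 (0.0489 to 0.426), 0.426 (0.120 to 0.731) and 0.685 (0.228 to 1.14). Its bounds overlapped in all comparisons, it did not reach an FPKM of 1 in any library, and its difference between IR and WI was 0.24 on the log2 scale. The fragments behind Mmp9 were 19, 39 and 45, so the gene was detected in all libraries. On the same scale, and for counting error only, Mmp9 was 1.615 times as high in IR as in WI (95% counting interval 1.028 to 2.546). In IR it was 2.97 times as high as in sham (1.70 to 5.38), and in WI it was 1.841 times as high as in sham (1.039 to 3.373). That scale is not sequencing depth, and the lower limit of 1.028 depends on it. Mmp8 was 0.135 times Mmp9 in WI and 12.5 times Mmp9 in IR, by FPKM.

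The other fragment counts show how thin the sham and WI values were. S100a8 rested on 78 fragments in sham, 57 in WI and about 957 in IR, and S100a9 on 99, 96 and about 1772. Retnlg had 19, 16 and about 359, Cxcr2 10, 14 and about 227, and Trem1 8, 7 and 80. Mmp8 went from 9 and 4 to about 437, and Clec4e from 3 and 8 to about 220. The numbers given as about were computed from the FPKM and not read from the bounds. No whole number could be read for Csf3r and Clec4d. The 5 genes Cxcr2, Mmp8, Clec4d, Clec4e and Trem1 passed the filter only through the IR sample, and so had to be higher there. One fragment added 1.40 times as much FPKM in the IR library as in the WI library, so the step between neighbouring counts was coarser in IR.

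**Figure D2:**
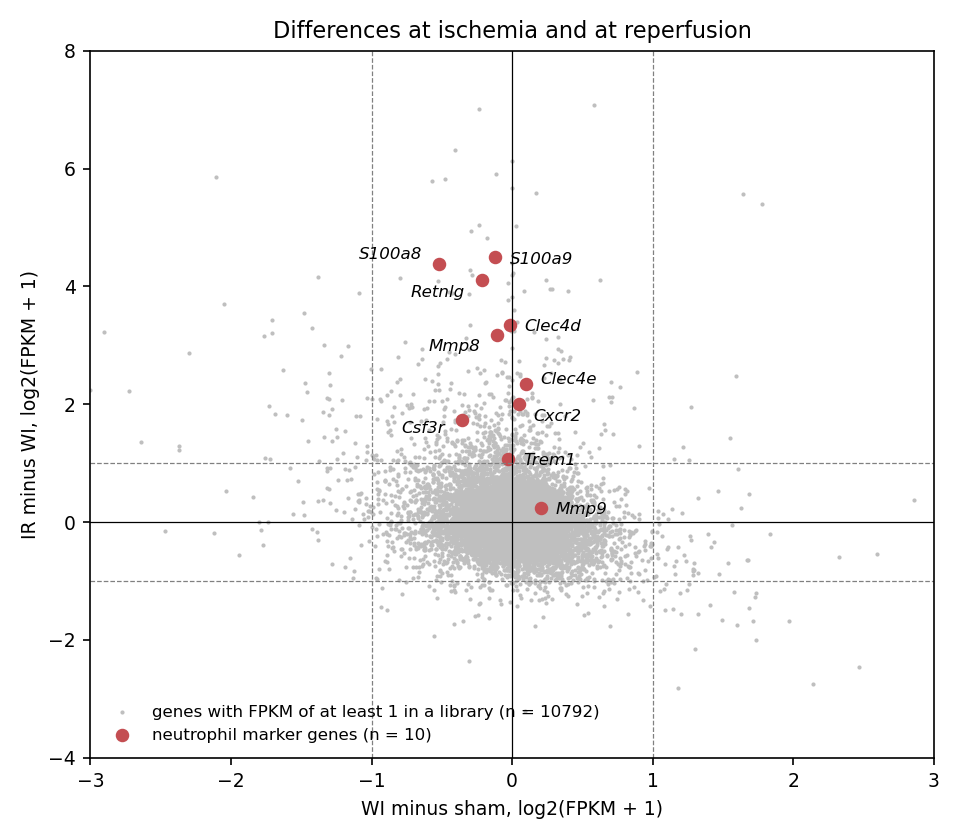
Difference of WI minus sham (x axis) and of IR minus WI (y axis), both in log2(FPKM + 1), for 10792 genes that passed the filter (grey) and the 10 neutrophil marker genes (red); dashed lines mark 2-fold, and 19 genes lie outside the axes. The markers lie between -0.52 and 0.20 on the x axis, and 9 of them lie above the upper 2-fold line.

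The 3 most abundant markers kept their order, and the order below them differed between libraries. In sham and WI, S100a8 and S100a9 stood above Retnlg with bounds apart, and all neighbours below Retnlg overlapped. In IR there were 2 gaps, between S100a9 and Retnlg and between Retnlg and Clec4d, and the order below was Clec4d, Mmp8, Clec4e, Csf3r, Cxcr2, Trem1 and Mmp9, each overlapping the next. Csf3r came next after Retnlg in sham and WI, and behind Clec4d, Mmp8 and Clec4e in IR. Mmp8 was last in WI and in place 5 in IR, and Mmp9 was in place 5 in sham and WI and last in IR. The median difference of the 10 markers was 2.76 for IR against WI and also 2.76 for IR against sham. Over the 9 that passed the filter it was 3.18 and 3.07, where the median of the 10792 genes was 0.03 and 0.05. Between WI and sham, 3 of the 10 were higher in WI (Cxcr2, Mmp9 and Clec4e), and the median of the 9 was -0.11 against 0.02 for the 10792 genes.

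The promoters of the markers were read because the genes stood together in the IR sample. RefSeq sequence on GRCm38.p6, from 250 bases before to 50 bases after the start of a gene, was matched for 9 of the 10 (not Mmp9) and searched on both strands. TATAAA, the core of the TATA box, was found in S100a8, S100a9, Clec4e and Mmp8, that is 4 of 9, and in 13.6% of 32851 promoters. In S100a8, S100a9 and Clec4e it began 30, 30 and 29 bases before the deposited start of the gene, and in Mmp8 it lay 3 bases before the start on the opposite strand. For S100a9 the RefSeq start lies 30 bases upstream of the deposited one. The windows of the first 3 are shown for that shared position, with the motif in capitals.
S100a8: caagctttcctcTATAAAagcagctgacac
S100a9: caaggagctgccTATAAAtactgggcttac
Clec4e: taattgcacatcTATAAAgcacgttgacat
They lie at chr3:90669029-90669058 on the plus strand, chr3:90695704-90695733 on the minus strand and chr6:123289883-123289912 on the minus strand. A match describes letters in a window and does not show that a factor binds there.

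Motifs of the myeloid factors C/EBP and PU.1, which act in granulocyte development, were searched in the same windows. TTGCNNAA, for C/EBP, was found in S100a9, Mmp8, Retnlg and Clec4e, 4 of 9, and in 10.8% of all promoters. AGGAAGT, for PU.1, was found in S100a8, Mmp8 and Trem1, 3 of 9, and in 9.35% of all promoters. Mmp8 was the one marker with both, and its windows are shown with that of Trem1 and those of the other C/EBP matches; capitals mark the motif, which reads as its reverse complement where it lies on the opposite strand.
Mmp8 PU.1: ttaactagcacaACTTCCTcattacacaca
Trem1 PU.1: acagtcccctgaACTTCCTtactgatgtca
Mmp8 C/EBP: ttaggcagaagTTGCTCAAgatgtagcttt
Clec4e C/EBP: actccttgtccTTGTGCAAgagaggaaatt
S100a9 C/EBP: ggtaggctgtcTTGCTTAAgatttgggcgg
Retnlg C/EBP: agctTTCTGCAAggcattccaggcacctcc
In this order they lie at chr9:7558196-7558225, chr17:48232618-48232647, chr9:7558399-7558428, chr6:123289919-123289948, chr3:90695939-90695968 and chr16:48872358-48872387. The strand is minus for Clec4e and S100a9 and plus for the others. TGANTCA, for AP-1, and the kappa-B motif were in 0 of the 9 windows and in 7.81% and 1.2% of all promoters. No 2 of these matches overlapped within a promoter. The binding of the factors was not measured.

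Among the genes whose pattern over the 3 libraries lay nearest the markers' median were Fst, Ddx3y, Slc10a6 and Plaur, by the distance between the WI minus sham and IR minus WI differences. Fst, which encodes the activin inhibitor follistatin, was at a distance of 0.05 on the log2 scale, with an FPKM of 1.26, 1.07 and 18.3 in sham, WI and IR. Plaur, the urokinase receptor, had 0.441, 0.441 and 10.2. Slc10a6, a transporter of steroid sulphates, had 0.344, 0.0691 and 8.33. Ddx3y is the Y-linked gene named above, so 3 libraries also placed a gene that differs by the sex of the mouse beside the markers.

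Other genes of neutrophils were taken from 4 lists of receptors, oxidase subunits, granule proteins and cytosolic or late proteins, with 46 genes. Of these, 45 were measured, and Ly6g was not analysed here. Between IR and WI, 16 of the 28 that passed the filter were at least 2-fold higher, 1 was lower and the median difference was 1.12, against 5.78% higher, 1.43% lower and a median of 0.03 over the 10792 genes. With the libraries rescaled to a common sum, 10 were higher and 1 was lower. Between IR and sham the counts were 13 higher and 1 lower, and between WI and sham 2 were higher and none lower. Several of them passed the filter only through the IR sample, so the counts describe and do not support.

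The lists differed from each other, in part through the filter. Stfa2l1, Asprv1 and Mrgpra2b, and the receptors Itgam, C5ar1, Ptafr and Il1r2, passed only through the IR sample and so had to be higher there. All oxidase genes passed in every library. Of the 10792 genes, 5.78% were at least 2-fold higher in IR than in WI. All 7 cytosolic or late genes that passed were at least 2-fold higher in IR than in WI, or 5 after the rescaling, among them Slpi, a protease inhibitor, with an FPKM of 2.36, 1.33 and 12.3 in sham, WI and IR, and Hdc, which makes histamine, with 4.68, 2.06 and 12.6. Stfa2l1 and Mrgpra2b, at 4.397 and 2.36 in IR and under 1 in sham and WI, belong to families of near-identical genes that can share reads. Of the 10 receptors that passed, 7 were at least 2-fold higher and none lower, and after the rescaling 4 were higher. Il1r2, a decoy receptor for interleukin 1, went from 0.134 and 0.146 to 12.96 with bounds apart, the largest difference of the list at 3.61 on the log2 scale. The formyl peptide receptor gene Fpr2 had 1.95, 1.91 and 9.43, and C5ar1 had 0.551, 0.581 and 3.49.

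Of the oxidase subunits, none of 6 differed 2-fold between IR and WI, and the median was 0.06, or -0.34 with the libraries rescaled to a common sum. Cybb, the catalytic subunit, had an FPKM of 12.7 in sham, 6.00 in WI and 4.26 in IR, and its sham and IR bounds were apart. This subunit is also made by macrophages. Granule genes differed among themselves. Mpo, Elane, Ltf and Camp, made in marrow precursors, stayed below an FPKM of 0.25 in all libraries, but Elane shares a merged locus with Prtn3 and its upper bound was 11.02 in sham and 15.97 in IR, so its level is not determined. Ngp, also made there, had 0.291, 0.1997 and 1.80 and was the one of these to pass the 2-fold threshold. Chi3l3, a chitinase-like protein with close relatives that can share its reads, had 0.327, 0.258 and 7.51. Prtn3 was 2-fold lower in IR than in WI, but its bounds ran from 0 to 77.5 in WI. Lcn2, which hepatocytes also make, was already 2-fold higher in WI, with 120.7 in sham, 335.2 in WI and 482.3 in IR, and so differed from the 10 markers. Its sham and WI bounds overlapped, as did those of WI and IR, and only sham and IR were apart.

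**Figure D3:**
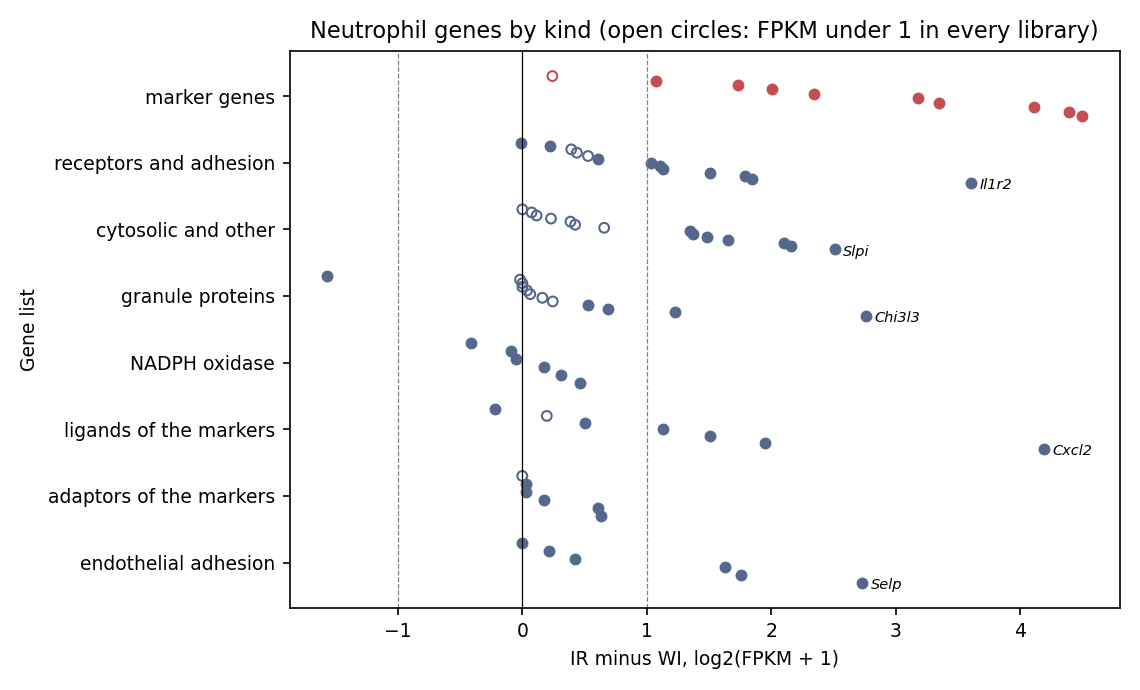
Difference of IR minus WI in log2(FPKM + 1) for each gene of the 10 markers (red) and of the lists of other neutrophil genes, of ligands and adaptors of the markers and of endothelial adhesion genes (blue); open circles did not reach an FPKM of 1 in any library, and dashed lines mark 2-fold. The oxidase genes lie around 0, while 9 markers and all 7 filled cytosolic genes lie above the upper 2-fold line. Several of these markers and cytosolic genes passed the filter only through the IR sample and so had to be higher there.

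The ligands of the marker receptors are given from a list whatever their value. Csf3, which encodes the G-CSF that Csf3r binds, was listed at 0 in sham and WI and at 1.19 (0.353 to 2.02) in IR. Of the ligands of Cxcr2, Cxcl1 had an FPKM of 8.13, 21.1 and 84.3 in sham, WI and IR, and Cxcl2 had 0.591, 0.308 and 22.9. Cxcl3 was listed at 0, 0 and 1.83, Cxcl5 at 0, 0.119 and 0.281, and Ppbp, a platelet chemokine, at 0.855, 0.496 and 1.12. Cxcl1 was the one ligand 2-fold higher already in WI, with sham and WI bounds that overlapped, where Cxcr2 itself was not. Sap130 was put on the list by its symbol and had 3.84, 3.76 and 3.09 with overlapping bounds. The nuclear protein that Mincle binds shares that name but is encoded by another gene, so Sap130 is not read as its ligand. In all, 4 of the 6 genes of this list that passed were at least 2-fold higher in IR than in WI. After rescaling to a common sum there were 3. The 6 include Sap130, which was not higher.

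Partners that act downstream of the markers differed by less than 2-fold. The adaptors Tyrobp, which carries the Trem1 signal, and Fcer1g, which carries that of the lectins, had an FPKM of 83.3, 64.7 and 66.2 and of 43.9, 36.7 and 41.4, with overlapping bounds. Of 5 adaptors and signalling genes that passed (Tyrobp, Fcer1g, Syk, Bcl10 and Malt1), none differed 2-fold, and the median between IR and WI was 0.17, or -0.26 with the libraries rescaled to a common sum. The kinase gene Syk had 2.13, 1.45 and 2.81. Card9, Bcl10 and Malt1, which relay the lectin signal, had 0.404, 0.244 and 0.244, then 7.22, 6.16 and 9.90, then 1.43, 1.18 and 1.23, each with overlapping bounds. Tyrobp and Fcer1g are expressed by all myeloid cells and were high in sham, where the 10 markers were low. Of the calprotectin receptor genes, neither Tlr4 nor Cd36, the 2 that passed, differed 2-fold between IR and WI.

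Among inhibitors, Socs3, which limits signalling from the G-CSF receptor, had an FPKM of 3.14, 5.38 and 108.9, with the IR bounds apart from both others. Timp1, an inhibitor of the matrix metalloproteinases, had 0.149, 0.175 and 3.61, but its IR bounds ran from 0 to 13.9. Adhesion genes of the endothelium, to which neutrophils attach, were at least 2-fold higher in IR than in WI for 3 of 6. Icam1 had 5.58, 6.92 and 23.4 and Sele 0.0249, 0.0340 and 2.49 with bounds apart, and Selp had 0.370, 0.416 and 8.39 with bounds that overlapped. Vcam1 was lower in WI than in sham, at 30.5, 7.76 and 10.8. The cytokine gene Il1b had 4.24, 7.29 and 23.4.

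The summed markers of some other blood cells were also higher in IR than in WI, and their part in the result was not tested. Neutrophils and monocytes share several of the 10 genes. The summed FPKM of 6 monocyte markers was 51.9, 34.5 and 69.7 in sham, WI and IR, with 2 of the 5 that passed at least 2-fold higher in IR than in WI, or 1 after the rescaling, and none at 0. Most of that sum is Plac8, with 45.4, 29.8 and 56.9. The 2 that were 2-fold higher were F13a1, with 0.0362, 0.0755 and 2.34, and Ly6c2, with 4.24, 2.455 and 7.49. The IR bounds of F13a1 were apart from both others, and those of Ly6c2 overlapped. In all, 4 of the 6 were higher in IR than in WI. The 2 that were lower were the monocyte receptors Ccr2, with 0.879, 1.03 and 0.932, and Cx3cr1, with 0.195, 0.151 and 0.0251, with overlapping bounds. The sum of 6 platelet markers was 2.95, 2.57 and 5.57, with 0, 1 and 0 of them at 0, and Pf4, the most abundant, had 1.047, 1.24 and 2.92. No platelet marker differed 2-fold, and the bounds of all 6 overlapped. That of 5 erythroid markers was 751, 518.1 and 1976, all 5 at least 2-fold higher in IR than in WI, or 4 after the rescaling, and none at 0. Hba-a1, an alpha-globin gene, had 248.6, 260.0 and 700.2, and it can share reads with its near-identical copy Hba-a2, which had 305.3, 123.4 and 715.0.

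Markers of resident liver cells were mixed, and most were not higher in IR than in WI. The sum of 12 Kupffer cell markers was 906.1, 514.2 and 361.1, with 11 of 12 lower in IR than in WI. Of the 12, 2 were at least 2-fold lower in IR than in WI, beside 1.43% of the 10792 genes. After rescaling to a common sum there were 7. Against sham, 10 of 12 were at least 2-fold lower in IR, beside 2.15% of genes, or 11 after the rescaling. The rescaling put the median of all genes at -0.41 for IR against WI and -0.42 against sham, which by itself adds to the genes called lower. Cd5l, the most abundant in sham, had an FPKM of 202.7, 90.5 and 59.0, and Marco, the one that was higher in IR than in WI, had 20.9, 12.6 and 25.3 with overlapping bounds. None of the Kupffer markers was at 0. The sum of 5 hepatocyte markers was 17440, 13360 and 18380, where Alb was set to 0 in all libraries because its locus held too many fragments for Cuffdiff. Apoa1, a hepatocyte gene, had 7630, 4239 and 8799, so the tissue matched its label. The sum of 3 markers of sinusoidal endothelium was 89.9, 64.1 and 80.0, with none at 0, and Clec4g, the most abundant, had 70.7, 55.9 and 41.4. Lyve1, a hyaluronan receptor also found on lymphatic endothelium, differed from that list's others, with 11.15 in sham, 2.73 in WI and 33.4 in IR and the IR bounds apart from both.

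**Figure D4:**
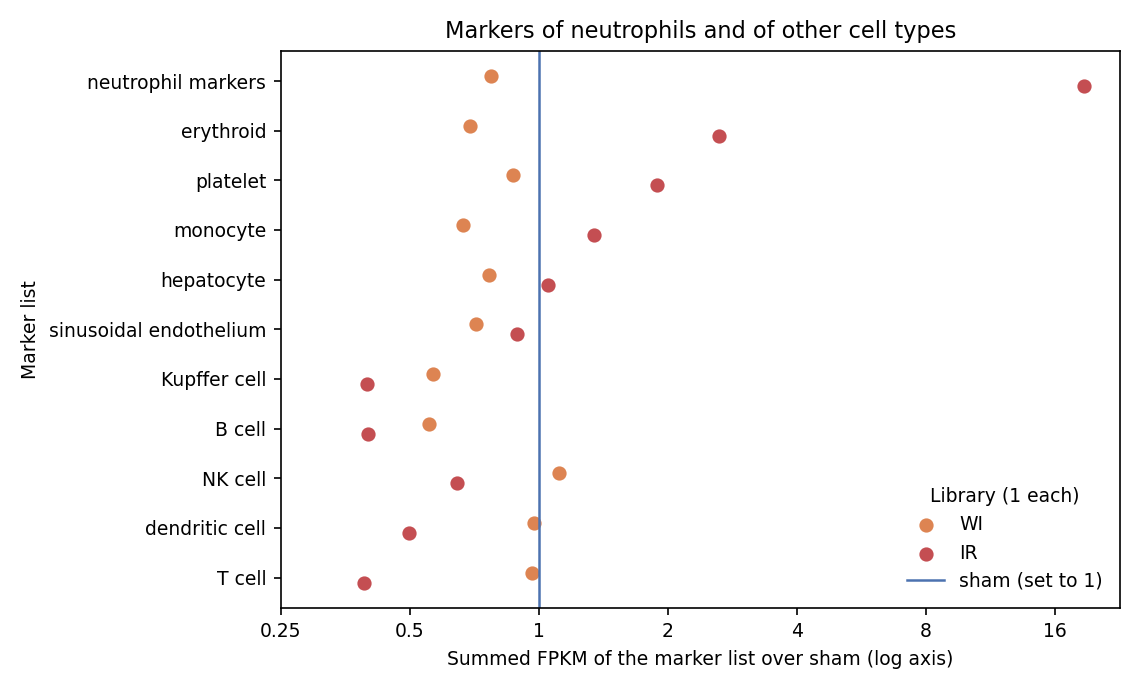
Summed FPKM of each marker list divided by its sum in the sham library (log axis), for sham, WI and IR, 1 library each; mast cell, basophil and eosinophil lists are left out because their sums are near 0. The neutrophil markers reach 18.7 times sham in IR, and the Kupffer cell, T cell, B cell and NK cell lists lie below sham in IR.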

How the data were processed

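The authors aligned read pairs to mm10 with TopHat2 2.0.9 and computed FPKM per gene with Cuffdiff of Cufflinks 2.0.2 at default settings (versions per the submitters' processing notes); the deposited FPKM come with 95% bounds, 1 library per group. FPKM were used as deposited on the scale of log2(FPKM + 1), after a filter of at least 1 in at least 1 library. Without replicates no test was run. The marker genes, the 23 lists and the motifs were chosen with earlier results of these data known. Besides the markers, the text names listed genes that passed the filter and differed 2-fold between IR and WI or sham, up to 4 per list by size, all ligands and adaptors, defining granule genes and the most abundant gene of each cell type list. Genes outside this rule were named after their values were seen, and 2 genes within the rules for named genes and nearest patterns are not reported here.

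Fragments were recovered by a method chosen after seeing the data. The squared ratio of FPKM to its standard deviation fell on levels shared by many genes. The standard deviation was taken as the distance to the upper bound over 2. The level with number n was read as n fragments. Counts beyond these levels, given as about, were computed from the FPKM by the gene's FPKM per fragment in the other libraries. Ratios that use them therefore restate the FPKM ratios. The ratio of FPKM per fragment between libraries was within 10% of its median for 99.29% to 99.96% of 2668 to 2926 genes. Of the genes on these levels, 56.9% to 57.95% came out whole within 0.02. Intervals cover counting error only. Ratios of fragments were put on the scale of the FPKM, by the FPKM that a fragment added in each library, and not on sequencing depth. The authors report fewer aligned read pairs for IR than for sham or WI, and a smaller aligned share.

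Coordinates are those of the files in mm10, counted from 1. The computation was done in Python (3.11.15) with the packages numpy (2.4.6), pandas (2.3.3) and scipy (1.17.1), figures were drawn with matplotlib (3.10.9), and the steps were tested on simulated data. The alternatives were other pseudocounts, filters, fold thresholds and scalings, and calls by bounds that do not overlap.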

Additional observations from a re-analysis of the deposited data

How the results depend on the processing

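No marker reversed its direction between IR and WI or IR and sham under any alternative. Of 174 single-gene values, 126 moved by less than the standard deviation that the bounds give, 48 moved more and 0 reversed. Among the 126, 30 came from no filter, 15 from at least 5 FPKM in 1 sample and 9 from at least 1 in all. A filter cannot change a single gene's difference, so these were fixed in advance. A pseudocount cannot change its direction, so only the rescalings could have reversed one. The median difference between IR and WI was 4.51 with a pseudocount of 0.1, 4.65 with 0.01, 2.76 with no filter, 4.11 over genes of at least 5 FPKM in 1 sample and 4.39 over those of at least 1 in all. Between IR and sham it was 4.49, 4.57, 3.87 (at least 5) and 3.89 (at least 1 in all). Those stricter filters left 5 and 3 markers, so the counts were 5 and 3 in both comparisons, by construction. Between WI and sham a pseudocount of 0.01 gave 2 markers past 2-fold, beside 4.14% of all genes, and a median of -0.28, where every other alternative gave 0 markers. Rescaling FPKM to a common sum (TPM) put the median of all genes at -0.41 between IR and WI and at -0.42 between IR and sham. The marker medians were then 2.86 and 2.73, and 8 and 7 of the markers passed 2-fold, beside 10.7% and 12.8% of all genes in either direction (7.21% and 7.5% as deposited), with Trem1 at 0.87 and 0.84 and Csf3r at 0.96 against sham below the threshold. At 4-fold, 7 markers passed in both, beside 1.8% and 1.54% of all genes. The limits are 1 library per group, the sex of the mice, the missing time-matched sham and fewer than 20 fragments in sham and WI for 5 of the 8 markers with whole counts. Leaving out a replicate could not be done, since each group has 1. No paired analysis was possible because each group has a single library.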

Other observations

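Markers of lymphoid and dendritic cells went the other way from the neutrophil markers, at low levels. The summed FPKM of 5 T cell markers was 3.84 in sham, 3.70 in WI and 1.501 in IR, with all 5 lower in IR than in WI, and Cd3g, the most abundant, had 1.70, 1.75 and 0.519. That of 4 B cell markers was 4.69, 2.59 and 1.87, with Cd79b at 2.15, 1.13 and 0.842. The sum of 4 natural killer cell markers was 3.80, 4.22 and 2.45, with Gzma at 2.67, 3.34 and 2.19, and that of 4 dendritic cell markers was 1.19, 1.16 and 0.593, with Itgax at 0.432, 0.465 and 0.257. On the deposited scale, no gene of these 4 lists differed 2-fold in FPKM + 1 in any comparison. With the libraries rescaled to a common sum, Cd3g stood at -1.094 for IR against WI and -1.089 against sham. Cd79b then stood at -1.088 for IR against sham. The bounds of Cd3g, Cd79b, Gzma and Itgax overlapped, while those of the dendritic cell gene Xcr1, with 0.189, 0.337 and 0.0458, were apart between WI and IR. Mast cell and basophil markers summed to 0.0425, 0.0247 and 0.0205 over 4 genes, and eosinophil markers to 0.298, 0.146 and 0.269.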
